A study of Mus musculus with 12 samples.

Results

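The genes described here are 33 listed targets and components of the ATF4 and unfolded protein responses, chosen by symbol in the annotation of the array. They form 2 arms that were kept apart throughout. The first holds 23 ATF4 amino acid genes and the second 10 ER chaperone genes, where ER is the endoplasmic reticulum. A gene was measured where a probe set (a group of probes read as 1 value) carried its symbol alone, and the brightest such probe set was used. This gave 32 measured genes of 19938 in all, 22 in the ATF4 arm and 10 in the ER arm. Pycr1, an enzyme of proline synthesis, had no probe set of its own.

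The cells were cardiac colony-forming-unit fibroblasts (cCFU-F), sorted from hearts of C57BL/6 male mice aged 12 weeks as SCA1+PDGFRα+CD31- and grown in culture as primary cells. All 4 groups came from this strain, age and sort: untreated cells, cells treated with PDGF-AB, a ligand of the PDGF receptors, at 50 ng/ml, and cells given AG1296 at 1 uM or at 10 uM, with 3 arrays each and 12 in all. AG1296 inhibits the tyrosine kinases of the PDGF receptors and also binds c-Kit and FGF receptors. Neither the vehicle nor the time under treatment is stated in the labels, so that an effect of a vehicle and one of the treatment cannot be told apart. The labels do not say whether the 3 arrays of a group came from separate cultures or animals, and the p-values measure the spread between these arrays.

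ATF4 is a transcription factor whose translation rises when a kinase such as PERK (ER stress) or GCN2 (uncharged tRNA) phosphorylates the initiation factor eIF2α, and also downstream of mTORC1 in growing cells. Its targets import and make amino acids, charge tRNAs and, under lasting stress, limit growth. The ER chaperone genes belong to the other side of the unfolded protein response. ATF6 and spliced XBP1, made through the sensor IRE1, raise them when unfolded proteins load the ER. Fibroblasts secrete much collagen and other matrix, and therefore keep these chaperones at a high level.

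Promoter sequences are shown first because the regulators of the 2 arms bind different elements, a feature that the array values did not set. Windows of 250 bases upstream of each RefSeq start site in GRCm38.p6 were searched on both strands for 3 motifs. The first was the C/EBP-ATF response element (CARE) TGATGNAA. The second was the ER stress element (ERSE) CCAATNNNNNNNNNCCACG, and the third was the unfolded protein response element (UPRE) TGACGTGG. None of these overlaps another in the windows shown. Of all 32851 windows, 3.45% held a CARE, 0.113% an ERSE and 0.563% a UPRE. Counted by gene, the shares were 3.91%, 0.13% and 0.603% of 27025 genes. Among 21 ATF4 arm genes with a window, 4 held a CARE (Asns, Chac1, Nupr1 and Pycr1) and 0 held an ERSE. Among 9 ER arm genes with a window, 4 held an ERSE (Hspa5, Hsp90b1 with 2, Calr and Creld2) and 1, Herpud1, held a CARE. The UPRE was found in 0 windows of either arm. Slc7a5, Cth and Manf had no window in the table. The genes were listed as targets and components of these responses, so the motif counts are no independent support for the 2 arms. A match is a description of these letters, and a window without one says only that the letters were not there.

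The whole window of Asns and of Nupr1, with the capitals on the CARE, shows 2 ATF4 arm genes that passed a test below. The 250 bases run to the base just before the start site, and all are written 5′ to 3′ on the strand of the gene. The Asns motif lies from base -23 to -16, and the part of the Chac1 window that surrounds its CARE is given with 20 bases on either side. In Chac1 and Nupr1 the motif is on the opposite strand and reads as its reverse complement. The Hspa5 window was chosen by rule, and the other windows were chosen after the values were seen.
Asns, chr6:7693210-7693459, minus strand: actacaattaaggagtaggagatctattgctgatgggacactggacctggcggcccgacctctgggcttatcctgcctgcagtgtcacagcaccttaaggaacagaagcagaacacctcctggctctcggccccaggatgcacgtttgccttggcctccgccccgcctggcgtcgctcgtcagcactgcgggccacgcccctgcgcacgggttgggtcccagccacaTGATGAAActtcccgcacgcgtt
Nupr1, chr7:126625471-126625720, minus strand: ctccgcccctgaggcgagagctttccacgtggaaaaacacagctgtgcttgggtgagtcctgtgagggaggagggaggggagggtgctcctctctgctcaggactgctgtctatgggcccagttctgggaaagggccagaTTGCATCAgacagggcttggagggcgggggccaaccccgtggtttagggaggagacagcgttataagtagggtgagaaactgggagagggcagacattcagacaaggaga
Chac1, chr2:119351029-119351076, plus strand: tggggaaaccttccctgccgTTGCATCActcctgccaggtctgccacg

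For the ER arm, the Hspa5 window carries the ERSE in capitals. The Herpud1 window carries a CARE in capitals, on the opposite strand, and is the one ER arm window that held it. Only the form of the ERSE given above was searched in it, and other forms of ER stress elements were not looked for. The stretches of Hsp90b1, Calr and Creld2 show the ERSE with 20 bases on either side, on either strand.
Hspa5, chr2:34771840-34772089, plus strand: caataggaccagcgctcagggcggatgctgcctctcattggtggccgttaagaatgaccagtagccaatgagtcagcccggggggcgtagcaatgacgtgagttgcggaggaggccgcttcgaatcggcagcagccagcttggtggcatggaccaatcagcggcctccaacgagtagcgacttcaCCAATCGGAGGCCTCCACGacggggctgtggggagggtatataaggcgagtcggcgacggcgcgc
Herpud1, chr8:94386179-94386428, plus strand: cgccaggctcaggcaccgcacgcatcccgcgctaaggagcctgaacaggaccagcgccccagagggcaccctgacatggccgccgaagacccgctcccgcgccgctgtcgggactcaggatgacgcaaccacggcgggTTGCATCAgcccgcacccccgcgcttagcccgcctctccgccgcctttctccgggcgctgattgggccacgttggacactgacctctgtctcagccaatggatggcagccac
Hsp90b1, chr10:86705513-86705676, minus strand: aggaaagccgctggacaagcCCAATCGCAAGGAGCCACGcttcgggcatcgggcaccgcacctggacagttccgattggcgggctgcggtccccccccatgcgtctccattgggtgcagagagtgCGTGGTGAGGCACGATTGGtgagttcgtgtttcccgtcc
Calr, chr8:84847055-84847113, minus strand: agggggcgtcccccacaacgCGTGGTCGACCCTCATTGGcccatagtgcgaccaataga
Creld2, chr15:88819500-88819558, plus strand: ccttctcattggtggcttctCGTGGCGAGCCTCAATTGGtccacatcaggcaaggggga

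Values are log2 expression as deposited, so that a difference of 1 is a doubling. Array medians over all probe sets lay between 4.02 and 4.13, and over the genes used between 4.38 and 4.48. Of the measured members, 30 lay above the gene median of the array on all 12 arrays. Cth did so only on the 3 arrays of AG1296 1 uM, and Stc2 on 8 arrays. A probe set near background can understate a fold change, which bears on Cth and Stc2. All 12 fibroblast markers, among them Pdgfra, Col1a1 and Dcn, lay above the gene median on every array. Endothelial markers did so for 0 of 8 in 3 groups and 1 of 8 (Flt1) at AG1296 1 uM, leukocyte markers for 1 of 8 (Lyz2), cardiomyocyte markers for 2 of 8 (Tnnt2 and Actc1), and pericyte and smooth muscle markers for 1 of 7 (Notch3). The array of PDGF-AB replicate 1 was the least like the rest, with a mean correlation across genes of 0.990 with the other groups, where the other 11 arrays had 0.992 to 0.993. Counts of members without it are given below where they differ.

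A gene was called where its Benjamini-Hochberg adjusted p over all 19938 genes was under 0.05 in limma, in 1 fit of all 12 arrays. Over the 4 groups, an F test called 9 of 22 ATF4 arm genes (40.9%) and 0 of 10 ER arm genes, against 5.00% of all genes. The 9 were Trib3, Asns, Slc7a5, Psat1, Psph, Cebpb, Nupr1, Cth and Stc2. All genes include dim ones, while most measured members lay above the gene median on every array. The shares of all genes here and below are not matched to the members in brightness. Without AG1296 1 uM replicate 1, 2 or 3 the F test called 3, 4 or 5 members, without PDGF-AB replicate 2 it called 5, and without any other array 6 to 8. The fibroblast markers had 5 of 12 called in the same test. The mean of that list lay at 9.70 to 9.80 on the untreated and PDGF-AB arrays and at 9.92 to 9.98 on the AG1296 arrays. Its members did not move together. Against untreated, 4 of 12 were called higher and 1 lower at each AG1296 dose (all genes, 1.88% and 1.33% at 1 uM, 1.21% and 0.672% at 10 uM). From untreated to 1 uM the mean of Dcn rose from 7.64 to 9.35, while that of Pdgfra fell from 9.42 to 8.51. Of the other marker lists, Tek, Lyz2, Tnnt2 and 3 of 7 pericyte and smooth muscle genes were called. The part of any of these in the results below was not tested. In cells in bulk, fewer cells of a type and less RNA per cell cannot be told apart.

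At AG1296 1 uM, 4 of 22 ATF4 arm genes (18.2%) rose against untreated cells. They were Trib3, Slc7a5, Cth and Stc2, and 0 fell, where 1.88% of all genes were called higher and 1.33% lower. The median log2 change of the 22 was 0.22, with 17 above 0, against a median of -0.01 over all genes. On 13 members the 3 treated arrays all lay above the 3 untreated arrays and on 2 all below, compared with 10.1% and 10.2% of all genes. Leaving out AG1296 1 uM replicate 1 or untreated replicate 3 gave 2 calls, as did fitting these groups alone. The count was 9 with dim genes filtered out and 9 with an intensity trend and robust moderation. Both settings added Asns, Slc3a2, Psph and Nupr1 as higher and Psat1 as lower. The filter kept genes above the gene median on at least 3 arrays. Cth, counted among the 9, passed it only through the 3 AG1296 1 uM arrays, where it was highest. Its call under the filter is therefore no separate support.

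At 10 uM a smaller part of the arm differed from untreated. Slc7a5 was called higher, 1 of 22 (1.21% of all genes), and 0 were called lower (0.672%), with a median log2 change of 0.02. The arrays did not overlap for 6 members above untreated (9.78% of all genes) and for 2 below (8.19%). With PDGF-AB the calls were 0 higher (0.120% of all genes) and 0 lower (0.211%) in limma. At an unadjusted p under 0.05 were 2 of 22 members, Cebpb and Ddit4 (1705 of all 19938 genes). The median log2 change with PDGF-AB was -0.02, and the arrays did not overlap for 2 members above untreated (6.74% of all genes) and 3 below (6.61%). Both AG1296 doses and PDGF-AB were set against the same 3 untreated arrays.

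**Figure D1:**
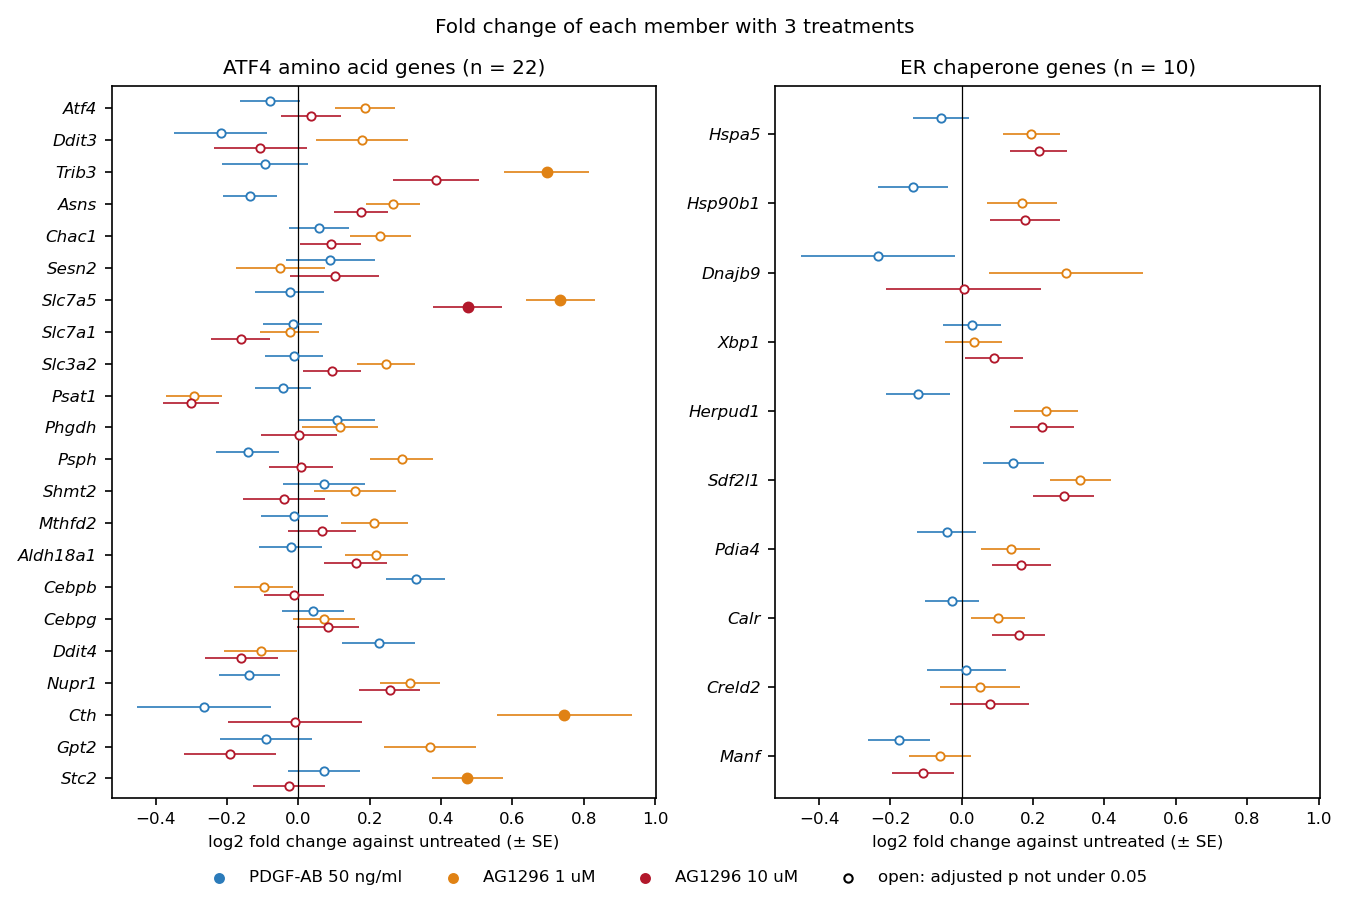
Log2 fold change against untreated (x axis) for each measured member (y axis) of the ATF4 arm (left) and the ER arm (right), with PDGF-AB in blue, AG1296 1 uM in orange and AG1296 10 uM in red. Points are differences of group means of 3 arrays, lines are ± 1 SE from the fit, and filled points have an adjusted p under 0.05. Filled points are Trib3, Slc7a5, Cth and Stc2 at 1 uM and Slc7a5 at 10 uM, and none lies in the ER arm.

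Among the transcription factors of the arm and their inhibitor Trib3, the mRNA of Atf4 itself was called in no comparison. Atf4 read 7.06, 7.0 and 6.95 on the untreated arrays, 6.98, 6.84 and 6.94 with PDGF-AB, 7.14, 7.21 and 7.22 at AG1296 1 uM, and 7.14, 7.02 and 6.95 at 10 uM. The 1 uM arrays lay above all untreated arrays, while those at 10 uM overlapped them. The log2 difference at 1 uM was 0.19 ± 0.08 (SE, n = 3; adjusted p = 0.360) and at 10 uM 0.04 ± 0.08 (adjusted p = 0.938). ATF4 is controlled largely at translation, which an array does not read. Ddit3, which encodes the stress factor CHOP, read 5.73, 5.60 and 5.60 untreated, 5.42, 5.33 and 5.52 with PDGF-AB, 5.93, 5.90 and 5.63 at 1 uM, and 5.82, 5.51 and 5.28 at 10 uM. Its 10 uM arrays had the widest spread of the 4 groups (SD 0.27), and no comparison of Ddit3 passed the test (smallest adjusted p = 0.117, PDGF-AB against AG1296 1 uM).

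Trib3, a pseudokinase that ATF4 and CHOP induce and that restrains both, had a larger change at AG1296 1 uM than the other 5 genes of this set of factors. It read 5.93, 5.92 and 6.17 on the untreated arrays and 5.67, 6.00 and 6.08 with PDGF-AB. It read 6.72, 6.59 and 6.81 at AG1296 1 uM, and 6.52, 6.28 and 6.38 at 10 uM. Both AG1296 groups lay above every untreated array, and the 1 uM arrays above every 10 uM array. The rise at 1 uM was 0.70 ± 0.12 (SE, n = 3), or 1.62-fold (adjusted p = 0.00458), and the call held with any 1 array left out. At 10 uM the difference from untreated was 0.39 ± 0.12 (adjusted p = 0.167), and was not called.

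Cebpb, a C/EBP partner of ATF4, was highest with PDGF-AB. It read 6.85, 6.90 and 6.94 untreated, 7.28, 7.21 and 7.18 with PDGF-AB, 6.80, 6.76 and 6.83 at 1 uM, and 6.97, 6.76 and 6.92 at 10 uM. All PDGF-AB arrays lay above the other 9. PDGF-AB differed from untreated by 0.33 ± 0.08 (adjusted p = 0.184), which was called where dim genes were filtered out. Nupr1, a small stress-induced chromatin protein, read 6.56, 6.54 and 6.59 untreated, 6.42, 6.39 and 6.47 with PDGF-AB, 6.90, 6.89 and 6.84 at 1 uM, and 6.98, 6.74 and 6.74 at 10 uM. The AG1296 arrays lay above, and the PDGF-AB arrays below, all untreated arrays. Against untreated the differences of Nupr1 were 0.31 ± 0.09 at 1 uM (adjusted p = 0.0680) and 0.26 ± 0.09 at 10 uM (adjusted p = 0.207). Cebpg, the other C/EBP factor, passed no test (smallest adjusted p = 0.819).

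The transporters were led by Slc7a5, the light chain of the LAT1 exchanger for large neutral amino acids such as leucine. It read 8.87, 8.61 and 8.70 on the untreated arrays and 8.76, 8.75 and 8.59 with PDGF-AB, which overlapped them. It read 9.52, 9.32 and 9.53 at 1 uM and 9.15, 9.18 and 9.26 at 10 uM, with all AG1296 arrays above both other groups and no overlap between the doses. The rise was 0.73 ± 0.10 (SE, n = 3) at 1 uM, or 1.66-fold (adjusted p = 0.000557), and 0.48 ± 0.10 at 10 uM, or 1.39-fold (adjusted p = 0.0208). The 1 uM call held with any 1 array left out. Leaving out any 1 of the AG1296 10 uM arrays, or untreated replicate 2 or 3, ended the 10 uM call (adjusted p up to 0.108). Slc3a2, the heavy chain that carries Slc7a5 to the membrane, read 9.68, 9.67 and 9.68 untreated and 9.96, 9.83 and 9.97 at 1 uM, a difference of 0.24 ± 0.08 that was not called (adjusted p = 0.158). Slc7a1, a carrier of cationic amino acids, passed no test, with a log2 difference of -0.16 ± 0.08 from untreated at 10 uM (adjusted p = 0.50).

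Among 9 measured enzymes, asparagine synthetase (Asns) was the brightest. It read 10.14, 10.13 and 10.04 untreated, 9.95, 9.96 and 9.99 with PDGF-AB, 10.36, 10.33 and 10.41 at 1 uM, and 10.27, 10.31 and 10.26 at 10 uM. The 4 groups did not overlap, in the order PDGF-AB, untreated, 10 uM and 1 uM. Against untreated the steps were small, with 0.26 ± 0.08 at 1 uM (adjusted p = 0.0854), 0.18 ± 0.08 at 10 uM (adjusted p = 0.379) and -0.14 ± 0.08 with PDGF-AB (adjusted p = 0.653). The CARE beside its start site is the one shown above.

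The enzymes of serine synthesis did not move together. Psat1, the aminotransferase of the pathway, read 8.29, 8.42 and 8.37 untreated, 8.26, 8.31 and 8.37 with PDGF-AB, 8.10, 8.04 and 8.06 at 1 uM, and 8.12, 8.05 and 8.00 at 10 uM. All 6 AG1296 arrays lay below the 6 others. The difference from untreated was -0.29 ± 0.08 at 1 uM (adjusted p = 0.0643) and -0.30 ± 0.08 at 10 uM (adjusted p = 0.0808), and Psat1 was called in the F test (adjusted p = 0.0463). Psph, the phosphatase of the last step, read 6.95, 6.92 and 6.87 untreated, 6.87, 6.75 and 6.69 with PDGF-AB, 7.18, 7.09 and 7.32 at 1 uM, and 6.94, 6.98 and 6.84 at 10 uM. Its 1 uM arrays stood above all others, by 0.29 ± 0.09 over untreated (adjusted p = 0.120), while its 10 uM arrays overlapped the untreated ones. Phgdh, the first enzyme, differed by 0.12 ± 0.11 at 1 uM (adjusted p = 0.741).

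Cth, cystathionine gamma-lyase, which makes cysteine, rose by 0.75 ± 0.19 (SE, n = 3) at 1 uM, or 1.68-fold (adjusted p = 0.0486). It read 4.33, 4.14 and 3.58 untreated, 3.49, 3.94 and 3.84 with PDGF-AB, 4.73, 4.93 and 4.64 at 1 uM, and 4.06, 3.72 and 4.25 at 10 uM. The 1 uM arrays lay above the other 9, and the remaining groups overlapped near the dim end of the array. It ended on leaving out any 1 of the AG1296 1 uM arrays, untreated replicate 2 or 3, PDGF-AB replicate 2 or 3, or AG1296 10 uM replicate 1 (adjusted p up to 0.180). The other 5 enzymes (Phgdh, Shmt2, Mthfd2, Aldh18a1 and Gpt2) had means over the 12 arrays of 5.80 to 8.77 and passed no test. Gpt2, an alanine aminotransferase, came nearest (PDGF-AB minus AG1296 1 uM, -0.46, adjusted p = 0.0600), and read 6.13, 6.18 and 6.13 at 1 uM against 5.71, 5.66 and 5.95 untreated.

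Of 4 stress effectors, Stc2 was called. Stanniocalcin 2 is a secreted glycoprotein that ATF4 induces. It read 4.40, 4.68 and 4.41 untreated, 4.71, 4.53 and 4.46 with PDGF-AB, 5.07, 4.91 and 4.94 at 1 uM, and 4.45, 4.46 and 4.50 at 10 uM. The 1 uM arrays lay above the other 9, which overlapped. The rise at 1 uM was 0.47 ± 0.10 (SE, n = 3; adjusted p = 0.0181), and AG1296 1 uM replicate 1 and untreated replicates 1 and 3 were each needed for the call (adjusted p up to 0.0982). At 10 uM the difference was -0.03 ± 0.10 (adjusted p = 0.964). Chac1 (which degrades glutathione), Sesn2 and Ddit4 (both inhibitors of mTORC1) had means of 6.20 to 6.81 and passed no test. Ddit4 came nearest, at 6.43, 6.52 and 6.36 with PDGF-AB against 6.14, 6.14 and 5.87 at AG1296 10 uM (0.38 ± 0.10, adjusted p = 0.0584).

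**Figure D2:**
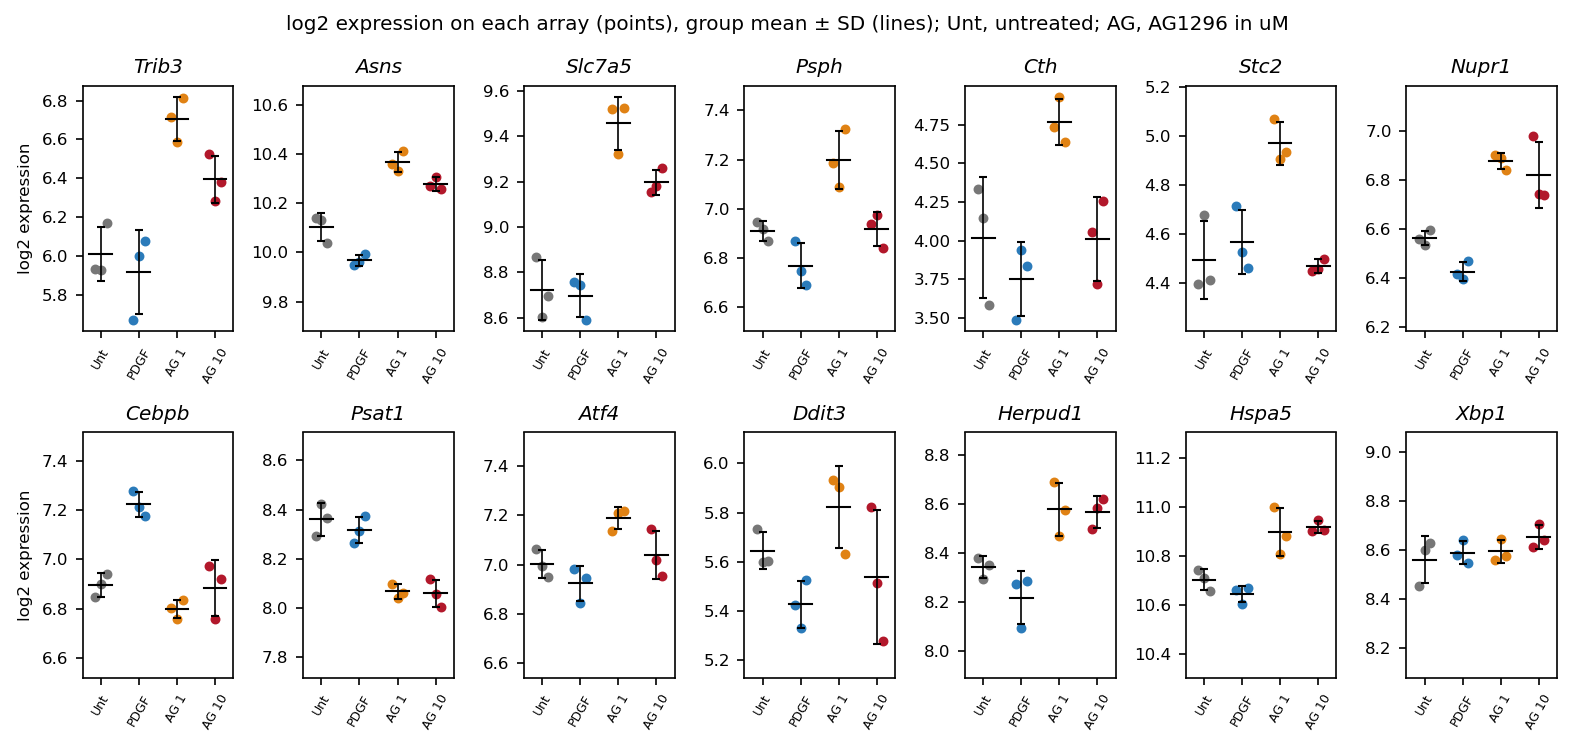
Log2 expression (y axis, own scale in each panel, not starting at 0) on each of the 12 arrays by group (x axis) for 14 members, with points for arrays and lines for the group mean ± SD (n = 3). Trib3, Slc7a5, Cth and Stc2 are highest at AG1296 1 uM, Cebpb is highest with PDGF-AB, and both AG1296 groups of Psat1 lie below the others.

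In the ER arm, 0 of 10 genes were called against untreated at either AG1296 dose or with PDGF-AB in limma. Over all genes 3.2% were called at 1 uM, 1.88% at 10 uM and 0.331% with PDGF-AB. The 0 of 10 lies near those shares. At an unadjusted p under 0.05 were 3 genes (Hspa5, Herpud1 and Sdf2l1) at each AG1296 dose and 0 with PDGF-AB. Over all 19938 genes these counts were 2616 at 1 uM, 2276 at 10 uM and 1705 with PDGF-AB. The median log2 change of the arm was 0.15 at 1 uM, 0.16 at 10 uM and -0.05 with PDGF-AB. At each AG1296 dose 9 of 10 lay above 0. The medians over all genes were -0.01, 0.01 and 0.01. At 1 uM the arrays lay wholly above untreated for 7 genes (10.1% of all genes) and below for 0 (10.2%). At 10 uM they lay above for 6 (9.78%) and below for 1, Manf (8.19%). Changes of this size can be missed with 3 arrays a group. In simulated data for AG1296 1 uM against untreated, a log2 change of 0.25 was called in 2.4% of the genes given it. One of 0.5 was called in 39.4%. Only 200 genes, drawn from all genes, were changed there, while the real comparison called 639. Each simulated gene kept its own spread, and the changed genes were not matched to the ER arm in spread. Fewer changed genes also make the adjusted threshold stricter, so these shares do not say how many ER arm changes were missed. The count of calls was 2 at each dose (Hspa5 and Sdf2l1) with an intensity trend and robust moderation, and the count at 1 uM was 1 (Sdf2l1) without PDGF-AB replicate 1.

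Hspa5 encodes BiP, the main ER chaperone, which also holds the ER stress sensors inactive. It read 10.74, 10.71 and 10.66 untreated, 10.66, 10.61 and 10.67 with PDGF-AB, 11.00, 10.81 and 10.88 at 1 uM, and 10.90, 10.95 and 10.91 at 10 uM. Every AG1296 array lay above every array of the other groups. The differences were 0.19 ± 0.08 at 1 uM (adjusted p = 0.291) and 0.22 ± 0.08 at 10 uM (adjusted p = 0.284), and the doses overlapped. Xbp1, whose mRNA IRE1 splices, read 8.45, 8.60 and 8.63 untreated, 8.58, 8.64 and 8.55 with PDGF-AB, 8.56, 8.65 and 8.58 at 1 uM, and 8.61, 8.71 and 8.64 at 10 uM. The 4 groups of Xbp1 overlapped, and its smallest adjusted p was 0.776. A gene-level probe set does not separate the spliced from the unspliced form.

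Herpud1, an ER membrane protein of the degradation pathway for misfolded proteins, read 8.38, 8.29 and 8.35 untreated, 8.27, 8.09 and 8.29 with PDGF-AB, 8.69, 8.47 and 8.58 at 1 uM, and 8.50, 8.58 and 8.62 at 10 uM. The AG1296 arrays all lay above the 6 others. Against untreated Herpud1 differed by 0.24 ± 0.09 at 1 uM (adjusted p = 0.238) and 0.23 ± 0.09 at 10 uM (adjusted p = 0.333). The other 7 genes of the arm (Hsp90b1, Dnajb9, Sdf2l1, Pdia4, Calr, Creld2 and Manf) had means over the 12 arrays of 6.70 to 10.70. Sdf2l1, a partner of BiP, came nearest to a call (7.98, 7.96 and 7.95 at 1 uM against 7.62, 7.55 and 7.72 untreated, 0.33 ± 0.08, adjusted p = 0.0510). Manf, a secreted ER stress factor, was the one ER arm gene with a mean below untreated at both AG1296 doses. Its log2 differences were -0.06 at 1 uM and -0.11 at 10 uM (adjusted p = 0.865 and 0.732). Dnajb9, a BiP cochaperone, had the widest spread, with 5.86, 7.0 and 6.50 on the PDGF-AB arrays, the lowest being PDGF-AB replicate 1.

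**Figure D3:**
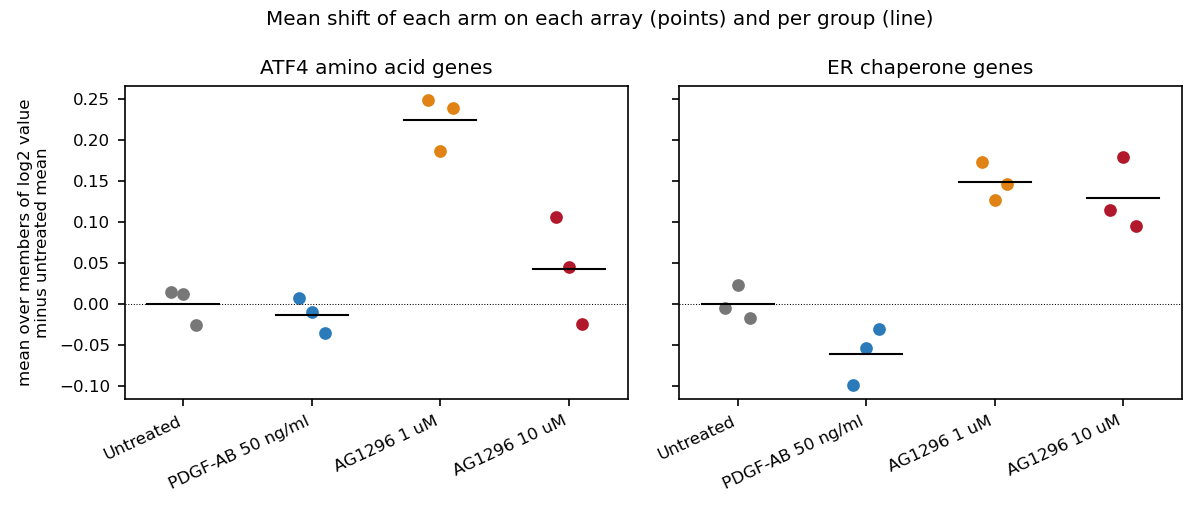
Mean over the members of each arm of the log2 value minus the untreated mean of each gene (y axis) on each array by group (x axis), points for arrays and lines for group means, with 22 ATF4 arm genes on the left and 10 ER arm genes on the right. The ATF4 arm stands at 0.19 to 0.25 at AG1296 1 uM and at -0.03 to 0.11 at 10 uM, and the ER arm at 0.13 to 0.17 at 1 uM and 0.09 to 0.18 at 10 uM.

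The 2 doses of AG1296 were then compared with each other, which asks whether the arms differed between doses. In the ATF4 arm 19 of 22 genes were lower at 10 uM than at 1 uM, with a median log2 difference of -0.14 against 0.02 over all genes. In limma 0 members were called higher (0.196% of all genes) and 0 lower (0.181%). At an unadjusted p under 0.05 were 7 of 22 (1809 of all 19938 genes). These were Ddit3, Trib3, Slc7a5, Psph, Cth, Gpt2 and Stc2, all lower at 10 uM. The arrays of the 2 doses did not overlap for 10 members, all lower at 10 uM (7.03% of all genes), and 0 were higher (8.88%). Stc2 came nearest, at -0.50 (95% interval -0.72 to -0.28, adjusted p = 0.0574). Cth differed by -0.76 (interval -1.16 to -0.35, adjusted p = 0.149), Gpt2 by -0.56 (interval -0.84 to -0.28, adjusted p = 0.111), Trib3 by -0.31 (interval -0.57 to -0.05, adjusted p = 0.433) and Slc7a5 by -0.26 (interval -0.47 to -0.05, adjusted p = 0.408). For Psat1 the difference was -0.01, with an interval of -0.18 to 0.16. The count of calls was 1 (Stc2) without PDGF-AB replicate 1 or untreated replicate 2, and 2 to 3 under the settings with dim genes filtered out or with an intensity trend.

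In the ER arm the doses lay close together, with a median log2 difference of 0.01. In limma 0 genes were called (0.376% of all genes), with 0 at an unadjusted p under 0.05 (1809 of all 19938 genes). The arrays did not overlap for 1 gene, Sdf2l1, which was lower at 10 uM (7.03% of all genes), and 0 were higher (8.88%). The 95% interval of the dose difference ran from -0.15 to 0.19 for Hspa5 and from -0.20 to 0.18 for Herpud1, and differences within those bounds could not be told from none. A difference between the arms in their response to dose was not tested.

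PDGF-AB is a ligand of the PDGF receptors and AG1296 inhibits their kinases. The comparisons between them gave the most calls among members, as they did over all genes (5.21% at 1 uM and 3.42% at 10 uM). With PDGF-AB against untreated 0 members were called. Whether the 2 treatments moved these genes in opposite directions was not tested. Against AG1296 1 uM, 7 of 22 ATF4 arm genes were lower with PDGF-AB (2.93% of all genes) and 1 was higher (2.28%), with a median log2 difference of -0.25 against 0.03 over all genes. The arrays did not overlap for 13 members lower with PDGF-AB (10.4% of all genes) and 3 higher (11.4%), the last being Cebpb, Ddit4 and Psat1. Those that were lower and called were Slc7a5 (-0.76 ± 0.10, adjusted p = 0.000218), Trib3 (-0.79 ± 0.12, adjusted p = 0.00105), Cth (-1.01 ± 0.19, adjusted p = 0.00487) and Asns (-0.40 ± 0.08, adjusted p = 0.00531), with Nupr1 (-0.45 ± 0.09, adjusted p = 0.00545), Psph (-0.43 ± 0.09, adjusted p = 0.0101) and Stc2 (-0.40 ± 0.10, adjusted p = 0.0327). Cebpb was higher with PDGF-AB by 0.43 ± 0.08 (adjusted p = 0.00711). The calls of Trib3, Asns, Slc7a5, Cebpb, Nupr1 and Cth held with any 1 array left out. That of Psph was lost without AG1296 1 uM replicate 3 (adjusted p = 0.0526), and that of Stc2 without any 1 of the AG1296 1 uM arrays or PDGF-AB replicate 2 or 3 (adjusted p up to 0.144).

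Against AG1296 10 uM, 4 of 22 genes were lower with PDGF-AB (2.0% of all genes) and 1 was higher (1.42%), with a median log2 difference of -0.06 against 0.00 over all genes. The arrays did not overlap for 5 members lower (9.59% of all genes) and 4 higher (8.47%). The called genes were Slc7a5 (-0.50 ± 0.10, adjusted p = 0.00915), Nupr1 (-0.39 ± 0.09, adjusted p = 0.0191), Asns (-0.31 ± 0.08, adjusted p = 0.0373) and Trib3 (-0.48 ± 0.12, adjusted p = 0.0449), with Cebpb higher by 0.34 ± 0.08 (adjusted p = 0.0398). The call of Slc7a5 held with any 1 array left out. The call of Cebpb was lost when any 1 of the 12 arrays was left out (adjusted p up to 0.176), that of Asns for all but untreated replicate 3 (up to 0.131) and that of Trib3 for all but PDGF-AB replicate 3 and untreated replicate 3 (up to 0.174). Nupr1 was lost without AG1296 10 uM replicate 1 or PDGF-AB replicate 1 or 2 (up to 0.0964), and between 1 and 4 members were called with 1 array left out (1 without PDGF-AB replicate 1). The comparisons with 1 uM and 10 uM share the PDGF-AB arrays.

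In the ER arm all 10 genes had a lower mean with PDGF-AB than with AG1296 at either dose, with a median log2 difference of -0.18 at 1 uM and -0.20 at 10 uM. Against 1 uM, Herpud1 was called lower (-0.36 ± 0.09, adjusted p = 0.0318), 1 of 10 where 2.93% of all genes were called lower, and 0 were called higher (2.28%). Herpud1 was not called on leaving out AG1296 1 uM replicate 1 or 3 or PDGF-AB replicate 2 (adjusted p up to 0.149). Against 10 uM in limma 0 were called (3.42% of all genes), with 5 at an unadjusted p under 0.05 (2813 of all 19938 genes). Herpud1 differed from 10 uM by -0.35 ± 0.09 (adjusted p = 0.05004, just short of the threshold). Hspa5 differed by -0.25 ± 0.08 at 1 uM (adjusted p = 0.101) and -0.27 ± 0.08 at 10 uM (adjusted p = 0.0932). The arrays did not overlap for 6 ER arm genes against 1 uM (10.4% of all genes lower) and 5 against 10 uM (9.59%), all lower with PDGF-AB.

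The 5 further lists set the members in their pathways. Of 21 measured further ATF4 targets, 2 rose at AG1296 1 uM (Vldlr and Slc1a5; 1.88% of all genes rose) and 0 fell (1.33%). At 10 uM 2 rose (Slc1a5 and Atf5; 1.21% of all genes) and 1 fell (Slc7a11; 0.672%). With PDGF-AB 0 were called against untreated in limma (0.331% of all genes), with 4 at an unadjusted p under 0.05 (1705 of all 19938 genes). Against AG1296 1 uM, 5 were lower with PDGF-AB (2.93% of all genes) and 0 higher (2.28%). Against 10 uM, 3 were lower (2.0%) and 1, Slc7a11, was higher (1.42%). Slc1a5, the glutamine carrier ASCT2, read 7.06, 7.29 and 7.05 untreated, 6.92, 6.96 and 6.92 with PDGF-AB, 7.59, 7.56 and 7.48 at 1 uM, and 7.61, 7.73 and 7.50 at 10 uM. Its AG1296 arrays lay above, and its PDGF-AB arrays below, all untreated arrays. The rise was 0.41 ± 0.09 at 1 uM (adjusted p = 0.0265) and 0.48 ± 0.09 at 10 uM (adjusted p = 0.0148). Every 1 uM array and untreated replicates 1 and 3 were each needed for the 1 uM call. AG1296 10 uM replicates 1 and 2 and the same untreated arrays were each needed for that at 10 uM. Slc1a4, the related carrier ASCT1, was lower with PDGF-AB than at 1 uM (-0.55 ± 0.10, adjusted p = 0.00285) and at 10 uM (-0.51 ± 0.10, adjusted p = 0.00796).

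Slc7a11, the cystine carrier xCT that ATF4 and NRF2 both induce, was lower at the higher dose. It read 6.61, 6.83 and 6.72 untreated, 6.72, 7.17 and 6.97 with PDGF-AB, 6.99, 7.11 and 7.19 at 1 uM, and 6.02, 6.31 and 6.19 at 10 uM. The 10 uM arrays lay below all others. It fell by 0.92 on the log2 scale from 1 uM to 10 uM (-0.92 ± 0.12, adjusted p = 0.00491), a call that held with any 1 array left out. Against untreated the difference at 10 uM was -0.54 ± 0.12 (adjusted p = 0.0337), and this call ended on leaving out AG1296 1 uM replicate 2, AG1296 10 uM replicate 1 or 3, PDGF-AB replicate 3 or any untreated array. Vldlr, a lipoprotein receptor, read 5.67, 5.58 and 5.52 untreated and 6.35, 6.19 and 6.08 at 1 uM, a rise of 0.61 ± 0.13 (adjusted p = 0.0181). Leaving out AG1296 1 uM replicate 1 or 2, or untreated replicate 2 or 3, ended it. At 10 uM Vldlr differed from untreated by 0.09 ± 0.13 (adjusted p = 0.889).

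Among 19 aminoacyl-tRNA synthetase genes (with the tRNA exporter Xpot), 1 rose at each AG1296 dose (1.88% of all genes at 1 uM and 1.21% at 10 uM) and 0 fell (1.33% and 0.672%). This was Eprs, which charges both the glutamate and the proline tRNA, at 8.08, 8.19 and 8.00 untreated, 8.30, 8.30 and 8.21 with PDGF-AB, 8.64, 8.66 and 8.54 at 1 uM, and 8.52, 8.61 and 8.51 at 10 uM. The rise was 0.52 ± 0.08 at 1 uM (adjusted p = 0.00249) and 0.45 ± 0.08 at 10 uM (adjusted p = 0.0106). The 1 uM call held with any 1 array left out, and the 10 uM call ended on leaving out AG1296 10 uM replicate 2 or untreated replicate 3. The list had a median of 0.03 at 1 uM and -0.02 at 10 uM, near the medians over all genes.

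None of 10 measured eIF2α kinases, phosphatase subunits and stress sensors was called in any of the 6 comparisons in limma. Over all genes 0.331% to 5.21% were called per comparison, so that 0 of 10 lies near those shares. Between 0 and 4 had an unadjusted p under 0.05, beside 1705 to 3371 of all 19938 genes. Mbtps1, the protease that activates ATF6, had the smallest adjusted p (PDGF-AB minus AG1296 10 uM, -0.28 ± 0.08, adjusted p = 0.0888). Of 25 further genes of ER folding and ER-associated degradation, 0 were called in any comparison, beside the same shares of all genes. Between 1 and 10 had an unadjusted p under 0.05, beside the same 1705 to 3371 genes. Sel1l, the adaptor of the degradation ligase, came nearest (PDGF-AB minus AG1296 10 uM, -0.31 ± 0.08, adjusted p = 0.0525). Against AG1296 10 uM, 23 of these 25 genes had a lower mean with PDGF-AB, with a median log2 difference of -0.16. Over all genes 9802 of 19938 had a lower mean, with a median of 0.00.

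Among 14 cytosolic and mitochondrial heat shock genes, which answer unfolded protein outside the ER, 1 rose at 1 uM (1.88% of all genes) and 2 rose at 10 uM (1.21%). Hsph1, a nucleotide exchange factor of HSP70, read 7.91, 7.85 and 7.90 untreated, 8.40, 8.36 and 8.31 at 1 uM, and 8.21, 8.33 and 8.29 at 10 uM, with both AG1296 groups above untreated. It rose by 0.47 ± 0.08 at 1 uM (adjusted p = 0.00353), a call kept on leaving out any 1 array, and by 0.39 ± 0.08 at 10 uM (adjusted p = 0.0203). Leaving out AG1296 10 uM replicate 2 or 3, or any untreated array, ended the 10 uM call. Bag3, an HSP70 cochaperone, rose by 0.42 ± 0.08 at 10 uM (adjusted p = 0.0167), a call that needed AG1296 10 uM replicates 1 and 2 and untreated replicates 1 and 3. The median of this list was 0.10 at 1 uM and 0.02 at 10 uM.

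**Figure D4:**
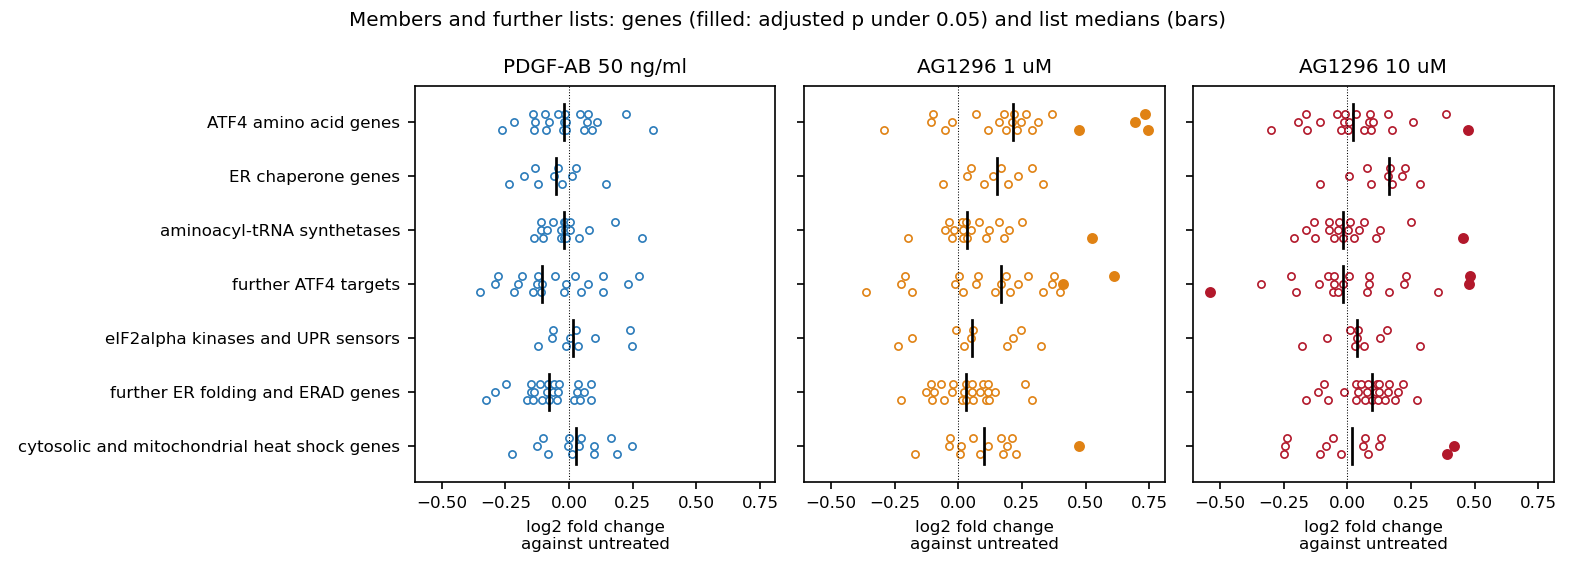
Log2 fold change against untreated (x axis) of each gene in the 2 arms and the 5 further lists (y axis) with PDGF-AB (left), AG1296 1 uM (middle) and AG1296 10 uM (right). Circles are genes, filled where the adjusted p is under 0.05, and bars are list medians. At 1 uM the medians of the ATF4 arm and of the further ATF4 targets stand at 0.22 and 0.17, and at 10 uM at 0.02 and -0.02, while the median of the ER arm is 0.15 and 0.16.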

How the data were processed

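The values were deposited by the authors as log2 expression per probe set of Affymetrix whole-transcript arrays. RMA and limma are named in the submitters' processing notes, without versions or settings. RMA subtracts background, normalizes across arrays and summarises probes, so small differences can be compressed for dim probe sets. That the scale is log2 was judged from the spread of the deposited values.

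Of 28853 probe sets, 21789 had 1 gene symbol and were kept, 1621 had several and 5443 none. For 999 genes with several probe sets the brightest over the 12 arrays was used (among the members, Pdia4), giving 19938 genes with no filter on dim ones. limma 3.58.1 in R 4.3.3 fitted all 12 arrays with a mean per group, and empirical Bayes moderation gave two-sided tests for 6 pairwise comparisons and an F test. Errors are SE of the fit unless called SD, and 95% intervals are not adjusted. The replicate numbers did not meet the criterion for pairing the arrays (every same-numbered pair correlated above 0.1) and were not used in this fit.

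The members and lists were chosen with earlier results of these data known. Per-array values are given for members called in any test and for Atf4, Ddit3, Trib3, Asns, Hspa5 and Xbp1, and from each further list for up to 4 called members with the largest change, or else the smallest adjusted p. Atf5, and unnamed members that came nearest to a call, were added after their values were seen. Promoter windows came from the RefSeq table of GRCm38.p6; 30 of 33 members had one. The test was tried on simulated data: for AG1296 1 uM against untreated over 19938 genes a log2 change of 0.75 was called in 78% and one of 1 in 91.2% of the genes given it, and 5.57% of calls were false. The alternatives were the replicate block, a filter on dim genes, quantile normalization, median centring, an intensity trend with robust moderation, the mean of a gene's probe sets, all probe sets, fits of only the groups compared, and leaving out each array.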

Additional observations from a re-analysis of the deposited data

How the results depend on the processing

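No alternative changed the sign of a called difference of a named gene. The counts of member calls moved with several settings, and the cause was not tested. With dim genes filtered out and with an intensity trend and robust moderation, in that order, the ATF4 arm had 1 and 0 calls for PDGF-AB against untreated, 9 and 9 (4 as reported) for AG1296 1 uM, 2 and 2 (1 as reported) for 10 uM, 2 and 3 between the doses, and 14 and 14 (8 as reported) for PDGF-AB against AG1296 1 uM. The ER arm had 1 and 2 at each AG1296 dose against untreated, and 3 and 3, and 3 and 4, for PDGF-AB against 1 uM and 10 uM. The F test called 14 and 16 (9 as reported). The filtered counts at 1 uM and for PDGF-AB against 1 uM include Cth, which passed the filter only through the AG1296 1 uM arrays. Both settings also act on all genes, whose share called can differ from that in the reported fit. The counts under these settings are therefore not to be set beside the shares of all genes given above. In fits of only the groups compared, the ATF4 arm had 2 calls at 1 uM, 0 at 10 uM and 1 for PDGF-AB against 10 uM, and the ER arm 0 for PDGF-AB against 1 uM. With all probe sets tested, PDGF-AB against 10 uM gave 2. Herpud1 was called in that comparison (1 in the ER arm) with the replicate block, with median centring and with the mean of probe sets. Quantile normalization lost Trib3 and Asns and added Ddit4 for PDGF-AB against 10 uM. At AG1296 1 uM against untreated it lost Cth and added Psat1. Median centring lost Asns for PDGF-AB against 10 uM. For PDGF-AB against 1 uM these settings lost no call and added Ddit4 (quantile normalization) and Gpt2 (median centring). With 1 array left out the ATF4 arm had 2 to 4 calls at 1 uM, 0 to 1 at 10 uM, 0 to 1 between doses, 6 to 9 for PDGF-AB against 1 uM and 1 to 4 against 10 uM. The ER arm had 0 to 1 at 1 uM and 0 to 1 for PDGF-AB against 1 uM, and the F test called 3 to 8.

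The replicate numbers were not taken as pairing the arrays, because 9 of 18 same-numbered pairs correlated above 0.1 in their deviations and the others did not (-0.03 to 0.30, median 0.11). Of 36 pairs with different numbers 1 did so (median -0.03), and 8 of 12 arrays were closest to their own number, a hint of a shared factor from the data and not from the labels. With the replicate block the ATF4 arm had 3 calls at 1 uM, losing Cth, and 8 and 5 for PDGF-AB against 1 uM and 10 uM, and the F test called 7. Median centring moved the share of higher calls between doses over all genes from 52% to 40%. Small changes are limited by 3 arrays a group and by signal near background for Cth and Stc2. Over all genes, leaving out 1 array gave as few as 349 calls at AG1296 1 uM against untreated (639 as reported), 219 at 10 uM (375), 16 between the doses (75), 21 for PDGF-AB against untreated (66), and 696 and 455 for PDGF-AB against 1 uM and 10 uM (1039 and 682).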
